A study of Mus musculus with 18 samples.

Results

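Rpph1, Rmrp, Scarna13 and Vaultrc5 are 4 short structured RNAs among the 24539 genes listed in 18 sequencing libraries of mouse liver. They were chosen by name, and on measured values: earlier results of these libraries had shown them high in ribosome pellets against the mRNA of the same livers. The RNC against mRNA contrast, and every contrast that uses the HFD+LYC RNC libraries, is therefore given here for these 4 as a description, and where a fit over all genes called them, the count is printed and nothing is read from it. All 18 libraries came from wild type C57BL/6 males that were 16 weeks old at sampling, after 8 weeks on a diet begun at 8 weeks of age. The diets were high-fat diet plus lycopene (HFD+LYC), where lycopene is the red carotenoid of tomatoes, high-fat diet alone (HFD), and normal chow (control), with 3 livers each. From each of the 9 livers a library was made of the RNA that pelleted with ribosomes and their nascent chains through a sucrose cushion (RNC), and another of RNA from the whole tissue (mRNA). Both kinds are labelled as poly(A) RNA.

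RNase P and RNase MRP are nuclear enzymes built on an RNA. Rpph1 is the RNA of RNase P, which trims the 5′ leader from precursor tRNAs, and Rmrp is the RNA of RNase MRP, which cuts precursor ribosomal RNA in the nucleolus and shares most of its proteins with RNase P. Vaultrc5 is a vault RNA, the RNA part of a large hollow cytoplasmic particle whose shell is the major vault protein. Scarna13 is a small Cajal body RNA of the H/ACA class, the class that guides the change of uridine to pseudouridine in spliceosomal RNAs, and it is cut from a host transcript. Rpph1, Rmrp and the vault RNAs are made by RNA polymerase III. Mature forms of these RNAs have no long poly(A) tail and are not translated.

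The sequences below show the kind of RNA in question for 3 of the 4. These are compact RNAs of 52.7% to 67.1% G and C, with no run of A over 4 bases. The sequences were taken from the GENCODE M21 transcripts on the mouse build GRCm38 and are written 5′ to 3′ in DNA letters. Rpph1 lies on the minus strand of chromosome 14, from 50807449 to 50807767, and its first 300 of 319 bases are shown. Rmrp lies on the minus strand of chromosome 4, from 43492788 to 43493058, and all 271 bases are shown. Scarna13 lies on the minus strand of chromosome 12, from 105031075 to 105031349, and all 275 bases are shown. Capitals in Scarna13 mark the ACA that stands 3 bases before the 3′ end, the box that gives H/ACA RNAs their name, and a TGAG, the core of the box known from other H/ACA small Cajal body RNAs.
Rpph1: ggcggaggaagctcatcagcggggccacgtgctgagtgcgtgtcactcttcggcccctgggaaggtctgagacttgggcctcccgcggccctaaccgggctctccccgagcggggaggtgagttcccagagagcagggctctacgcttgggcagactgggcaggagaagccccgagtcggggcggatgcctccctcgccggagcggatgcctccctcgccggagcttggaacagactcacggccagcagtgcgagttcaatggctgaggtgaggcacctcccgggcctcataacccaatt
Rmrp: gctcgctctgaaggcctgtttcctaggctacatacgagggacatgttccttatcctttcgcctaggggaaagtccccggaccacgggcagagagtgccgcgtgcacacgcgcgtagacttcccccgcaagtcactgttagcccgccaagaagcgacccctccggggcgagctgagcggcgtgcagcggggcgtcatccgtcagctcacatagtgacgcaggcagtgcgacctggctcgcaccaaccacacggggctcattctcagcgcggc
Scarna13: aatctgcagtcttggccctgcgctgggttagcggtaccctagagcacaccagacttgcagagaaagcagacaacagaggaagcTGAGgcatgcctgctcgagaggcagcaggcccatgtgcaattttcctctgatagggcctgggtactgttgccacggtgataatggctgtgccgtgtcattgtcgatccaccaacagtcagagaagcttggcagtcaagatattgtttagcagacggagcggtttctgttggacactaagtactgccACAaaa

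Of the whole RNAs, 67.1% of Rpph1, 64.2% of Rmrp and 52.7% of Scarna13 was G or C, and the longest run of A was 2 bases in Rpph1, 3 in Rmrp and 4 in Scarna13. An ACA exactly 3 bases from the 3′ end was found in 36 of the 2148 GENCODE transcripts of 250 to 300 bases (1.68%). A TGAG anywhere on the transcript strand was found in 1692 of them (78.8%). The search read the transcript strand only, and the motifs do not overlap in Scarna13. The reads were counted on RefSeq entries, which the deposited tables list with lengths of 325 bases for Rpph1, 275 for Rmrp, 275 for Scarna13 and 345 for Vaultrc5.

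The RNC libraries of HFD+LYC livers stood apart from all others before any of the 4 RNAs is considered. Between 8940 and 10037 genes had a read in them, against 13324 to 14450 in the other 6 RNC libraries, and 70 to 112 genes had exactly 1 read, against 614 to 861. Of 10389 genes with a level of at least 1 CPM (reads per 1000000 listed reads) in all 6 other RNC libraries, 428 (4.12%) had no read in any of the 3. The libraries held 4533729 to 12742436 listed reads, and 3 reads were worth 0.235 to 0.662 CPM. The deposited values imply a library total from which 0.765% to 29.9% of reads are missing in the gene list. From here on, levels are CPM scaled across the 18 libraries by the trimmed mean method (TMM), with mean ± SD over 3 livers. All 8 hepatocyte markers had reads in every diet group of both kinds. Their summed level on this scale was 146209 to 518918 CPM in HFD+LYC RNC libraries. It was 97277 to 138175 CPM in HFD and 120841 to 145807 CPM in control RNC libraries. The scaling raised levels most in HFD+LYC RNC replicates 1 and 3, so these sums are not shares of the listed reads. How much of the difference between diets in these sums comes from the scaling was not tested.

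Each of the 4 RNAs was most abundant in the 3 HFD+LYC RNC libraries, and each stood higher in all 3 than in any of the other 15 libraries. The same held for 639 of the 17583 genes with a read in any library, or 3.63%, and since the 4 were chosen for it, nothing is read from their count. Outside these 3 libraries the RNAs were low, and none was higher in RNC than in mRNA in every HFD or every control liver. The name under which they were grouped, RNAs in ribosome pellets, therefore held in HFD+LYC livers and not across the 3 diets.

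**Figure D1:**
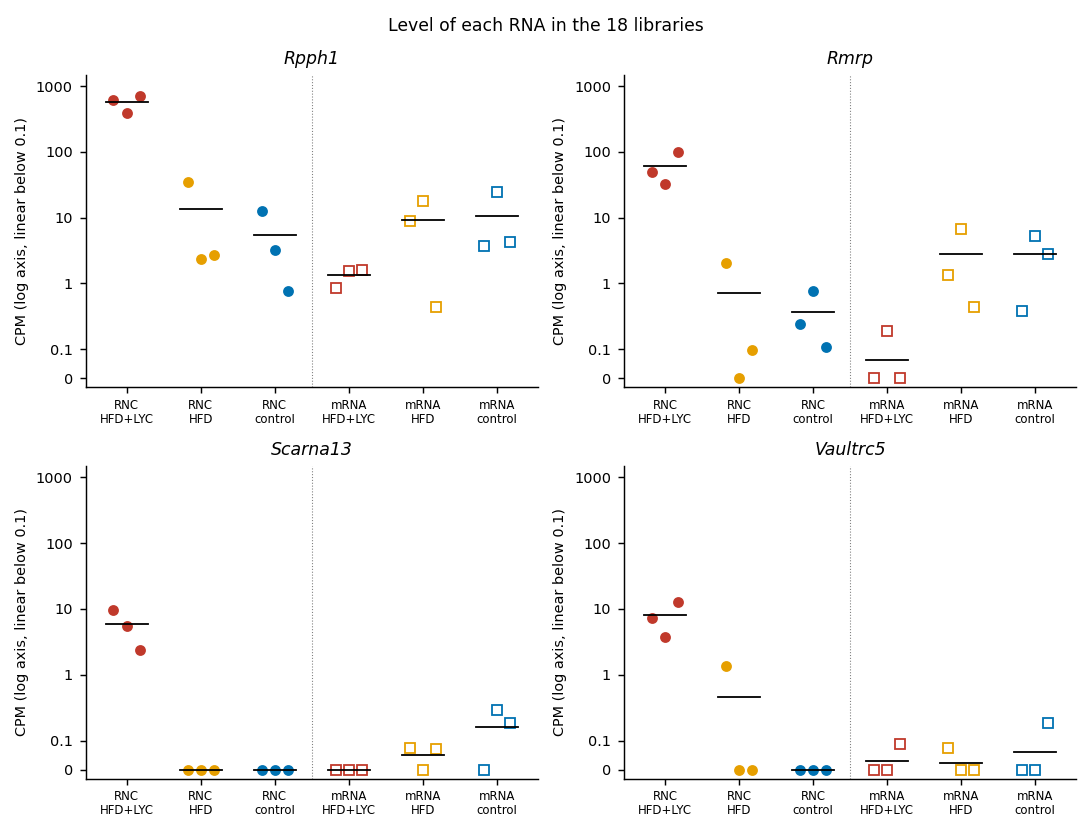
Level of Rpph1, Rmrp, Scarna13 and Vaultrc5 in the 18 libraries, in CPM on a log axis that is linear below 0.1; filled circles are RNC libraries, open squares are mRNA libraries, and black bars are means of 3 livers. In every panel the 3 HFD+LYC RNC libraries lie above all 15 others, and for Rpph1 they reach 393 to 719 CPM.

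Rpph1 was the most abundant of the 4. In RNC it had 607, 393 and 719 CPM in HFD+LYC livers, 35.0, 2.32 and 2.72 CPM in HFD livers, and 12.6, 3.19 and 0.760 CPM in control livers. The HFD+LYC libraries did not overlap with the others, while the HFD and control libraries overlapped, each with replicate 1 above the rest. The mean of 573 ± 166 CPM in HFD+LYC RNC was 42.9-fold that in HFD RNC, 13.4 ± 18.8 CPM, and 104-fold that in control RNC, 5.51 ± 6.25 CPM. These folds hang on replicate 1 of the lower groups: without it they were 227 against HFD and 290 against control, and without either of the others 30.4 or 30.7 and 85.8 or 72.6. Over pooled reads they were 73.0 (95% exact counting interval 63.7 to 84.2) and 112 (94.8 to 134). In mRNA the order of the diets was the other way round: Rpph1 had 0.857, 1.53 and 1.61 CPM in HFD+LYC livers, 8.99, 17.8 and 0.435 CPM in HFD livers, and 3.77, 24.3 and 4.28 CPM in control livers. The HFD+LYC values lay below all control values and inside the HFD range, which was wide because HFD replicate 3 was the lowest of the 9. How many of all genes lay below control mRNA in this way was not counted. In reads, the 3 HFD+LYC livers held 7637 reads of Rpph1 in RNC and 42 in mRNA, against 209 and 344 in HFD livers and 139 and 339 in control livers.

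Rmrp followed the same pattern at a lower level. In RNC it had 49.9, 32.5 and 99.9 CPM in HFD+LYC livers, 2.03, 0 and 0.0971 CPM in HFD livers, and 0.245, 0.770 and 0.109 CPM in control livers. In mRNA it had 0, 0.192 and 0 CPM in HFD+LYC livers, 1.34, 6.72 and 0.435 CPM in HFD livers, and 0.377, 5.19 and 2.79 CPM in control livers. In RNC the HFD+LYC livers lay above the other 6. In mRNA they lay below them, where the lowest of the others held 4 reads, in control replicate 1. The share of all genes that lay below in mRNA in this way was not counted, so nothing is read from it. The HFD+LYC mRNA level rests on 2 reads, both in replicate 2.

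Scarna13 and Vaultrc5 were close to the limit of detection outside HFD+LYC RNC. Scarna13 had 34, 22 and 13 reads in the HFD+LYC RNC libraries, or 9.58, 5.55 and 2.38 CPM, and no read in the 6 other RNC libraries. In mRNA it had no read in HFD+LYC, 1, 0 and 1 in HFD, and 0, 3 and 2 in control libraries. Vaultrc5 had 26, 15 and 70 reads in the HFD+LYC RNC libraries, or 7.33, 3.78 and 12.8 CPM, 6, 0 and 0 reads in HFD RNC, and none in control RNC. In mRNA it had 0, 0 and 1 reads in HFD+LYC, 1, 0 and 0 in HFD, and 0, 0 and 2 in control libraries. Against a floor of 3 reads over the group, Scarna13 was at least 46.0-fold higher in HFD+LYC than in HFD RNC and at least 46.9-fold higher than in control RNC. Vaultrc5 was 37.0-fold higher than in HFD RNC (95% exact counting interval 16.5 to 103) and at least 75.5-fold higher than in control RNC. Such floors and intervals take in the error of counting alone and leave out the spread between livers. PCR copies of 1 molecule are also counted apart where no molecular identifiers are used.

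Set against each other per kilobase of listed length, the means in HFD+LYC RNC were 1763 ± 509 for Rpph1, 221 ± 127 for Rmrp, 23.1 ± 13.2 for Vaultrc5 and 21.2 ± 13.1 CPM per kilobase for Scarna13. Vaultrc5 and Scarna13 did not differ beyond their spread, and Scarna13 was the higher of them in replicates 1 and 2 and the lower in replicate 3. Within a library Rpph1 was 10.3, 10.2 and 6.09 times Rmrp per length in replicates 1, 2 and 3. It was 53.6, 60.0 and 255 times Scarna13, and 87.9, 110 and 59.5 times Vaultrc5. The members did not keep one ratio: replicate 3 held the most Rpph1, Rmrp and Vaultrc5 and the least Scarna13. By reads per length Rpph1 ranked 86, 68 and 59 among all listed genes in the 3 libraries.

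RNC over mRNA in the same liver compares an RNA's share of the pellet library with its share of the whole-tissue library, here as log2 of the 2 levels with 2 reads added to each. For Rpph1 this was 8.53 ± 0.67 in HFD+LYC livers, 0.43 ± 2.82 in HFD livers and -1.12 ± 2.45 in control livers. It lay above 0 in 3 of 3 HFD+LYC, 2 of 3 HFD and 1 of 3 control livers, so in HFD and control livers the sign changed from animal to animal. For Rmrp it was 7.69 ± 1.28 in HFD+LYC, -1.85 ± 2.86 in HFD and -2.01 ± 1.48 in control livers, and it lay above 0 in 3, 1 and 0 of 3 livers. Without the 3 HFD+LYC livers the mean over the remaining 6 was -0.35 ± 2.51 for Rpph1 and -1.93 ± 2.03 for Rmrp.

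**Figure D2:**
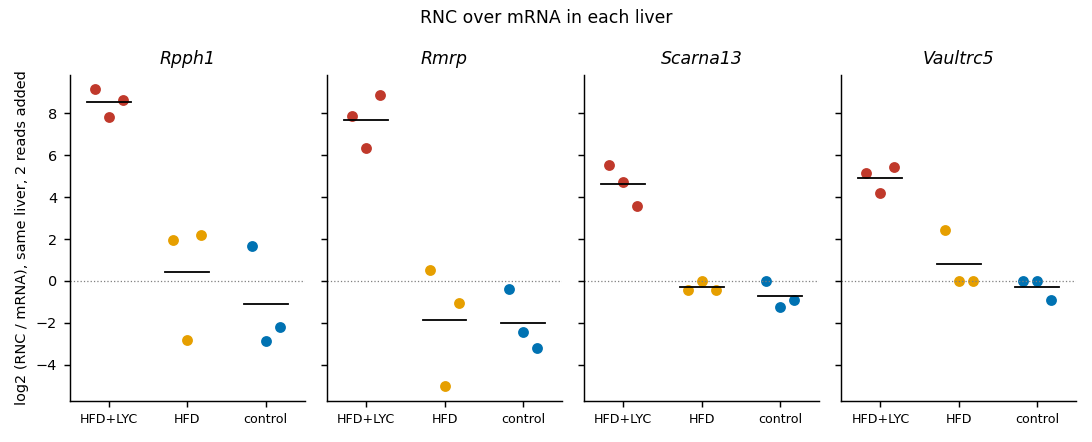
log2 of the RNC level over the mRNA level of the same liver for each of the 4 RNAs, with 2 reads added to each count; points are livers, bars are means of 3, and the dotted line marks equal levels. The HFD+LYC livers lie at 3.60 or above in all 4 panels, while HFD and control livers lie at 2.44 or below, on both sides of the line for Rpph1 and at or below it in every control liver for Rmrp, Scarna13 and Vaultrc5.

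The same ratio was also taken from reads pooled over the 3 livers of a diet. In HFD+LYC livers RNC held 434 times as much Rpph1 as mRNA (counting interval 321 to 602) and 265 times as much Vaultrc5 (46.5 to 10549, on 1 mRNA read). Rmrp was 1015 times as high (280 to 8393, on 2 mRNA reads), and Scarna13 at least 54.9 times. In HFD livers the pooled ratio was 0.925 (0.775 to 1.10) for Rpph1, 0.144 (0.0669 to 0.275) for Rmrp and 9.13 (1.11 to 420) for Vaultrc5, on 6 RNC reads and 1 mRNA read. In control livers it was 0.492 (0.401 to 0.601) for Rpph1 and 0.136 (0.0632 to 0.263) for Rmrp. By pooled reads Rmrp was thus less abundant in RNC than in mRNA in both of these diets, but the pooled intervals leave out the spread between livers. In HFD, 82 of the 106 mRNA reads of Rmrp came from replicate 2. Of its 10 HFD RNC reads 9 came from replicate 1, where the log2 ratio was 0.53.

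In the fits over all genes, edgeR's quasi-likelihood test called 3 of the 4 RNAs higher in HFD+LYC than in HFD RNC, where it called 9.34% of the 11660 genes higher and 17.4% lower. It called all 4 higher in HFD+LYC than in control RNC, where 9.23% of genes were called higher and 17.1% lower. Vaultrc5 was the RNA not called against HFD, and its call against control was lost without any of the 3 control replicates. For the RNC to mRNA ratio it called 3 of 4 higher against HFD and 3 of 4 against control, where 3.42% and 2.77% of 12872 genes were called higher. With the liver as a block the ratio counts were 2 against HFD, where Scarna13 was lost, and 4 against control, where Vaultrc5 was gained. Scarna13 and Vaultrc5 passed the filter on low counts through the HFD+LYC RNC libraries, as did Rmrp in the RNC fit, and the choice of the members used these contrasts, so nothing is read from these counts.

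The mRNA counts are the denominators of the ratios by which the RNAs were chosen, so the diets are compared in mRNA as a description too. Rpph1 and Rmrp were the 2 RNAs that passed the filter there. In HFD+LYC against HFD mRNA, Rmrp had a log2 fold change of -5.22 (SE 1.47) and Rpph1 of -2.74 (SE 1.05). Against control, Rmrp had -5.23 (SE 1.48) and Rpph1 -3.03 (SE 1.06). Both RNAs were thus lower on average in HFD+LYC mRNA, Rmrp on 2 reads. edgeR's quasi-likelihood test called neither, where it called 2.91% of the 12664 genes against HFD and 5.54% against control. DESeq2 called Rmrp in both comparisons. Deviations of log2 CPM from the mean of each group were also compared between mRNA libraries. Across genes, those of same-numbered HFD+LYC and HFD libraries correlated with r of 0.133, 0.296 and 0.461. Over all 3 diets, same-numbered mRNA pairs had r of -0.416 to 0.461, over 0.1 in 7 of 9. Pairs of unlike number had -0.666 to 0.599, over 0.1 in 4 of 18. The fit with the replicate number as a block called Rmrp too, and 1457 genes in place of 368. Without HFD replicate 2 Rmrp was called against control, and without HFD replicate 3 both RNAs were. Nothing is read from these calls.

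In HFD against control livers no RNA that could be tested was called. In mRNA, Rpph1 had a log2 fold change of -0.28 (SE 0.92) and Rmrp of -0.01 (SE 0.95), both with an adjusted p of 1.00 by edgeR, and 0.0158% of genes were called. In RNC, Rpph1 had 1.18 (SE 1.11, adjusted p of 1.00 by edgeR), and 0.00858% of genes were called. Rpph1 was the 1 RNA that passed the filter in a fit of the HFD and control RNC libraries alone. Rmrp had 10 reads in HFD RNC, 9 of them in replicate 1, and 10 in control RNC. The 6 reads of Vaultrc5 in HFD RNC all came from replicate 1, and Scarna13 had none in either diet. For the RNC to mRNA ratio 0 genes (0%) were called, with 20 at an unadjusted p under 0.05 by edgeR and 1 called by DESeq2. In RNC, 214 genes had an unadjusted p under 0.05 by edgeR and 34 were called by DESeq2, and in mRNA 358 and 38. With standard errors of this size a change of a few fold would not have been called.

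Within each group of HFD and control libraries, Rpph1 was highest where the most reads fell outside the gene list. In mRNA the highest Rpph1 of each diet, 17.8 CPM in HFD replicate 2 and 24.3 CPM in control replicate 2, stood in the library with the largest missing share of its diet, 19.7% and 23.0%. In RNC the highest Rpph1, 35.0 CPM in HFD replicate 1 and 12.6 CPM in control replicate 1, again stood with 13.8% and 6.31%. Rmrp did the same in 3 of these 4 groups, but in control RNC it was highest in replicate 2, at 0.770 CPM with 1.85% missing, against 0.245 CPM in replicate 1. The ribosomal RNA precursor Rn45s, another RNA without a poly(A) tail, moved with them. It had 543 CPM in HFD mRNA replicate 2 against 336 and 64.6 CPM in the other HFD replicates, and 718 CPM in control mRNA replicate 2 against 224 and 256 CPM in the other control replicates. In RNC it had 208, 12 and 25.4 CPM in HFD and 89.9, 27.2 and 30.9 CPM in control replicates 1, 2 and 3. In HFD+LYC livers these values parted: Rn45s had 125, 331 and 196 CPM in RNC and 1282, 868 and 510 CPM in mRNA, where the mean of Rpph1 was the lowest of the 6 groups, and the missing share was 8.22%, 29.9% and 14.2% in RNC and 2.36%, 7.91% and 1.25% in mRNA. The part of poly(A) selection and of the reads outside the list in the levels of the 4 RNAs was not tested.

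**Figure D3:**
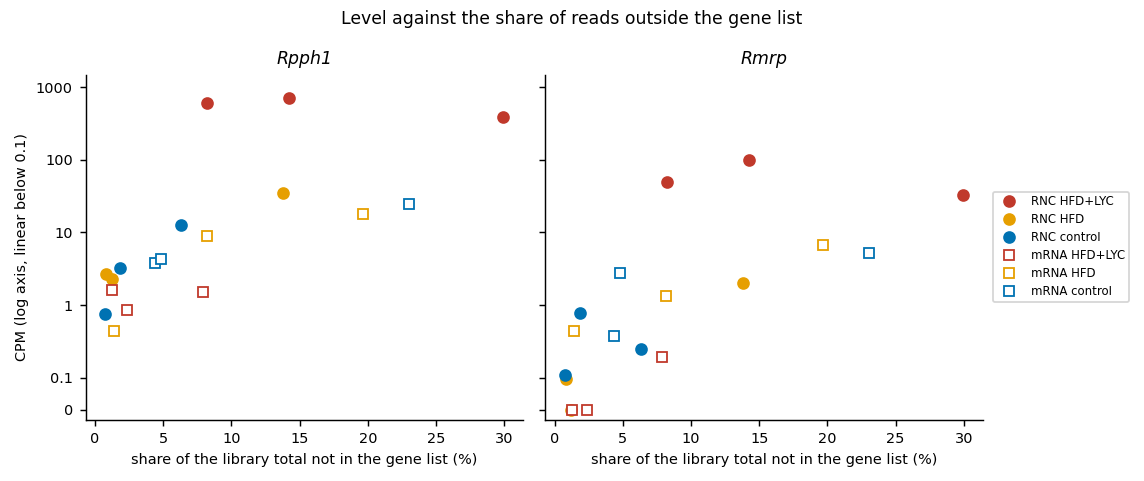
Level of Rpph1 and Rmrp in CPM (log axis, linear below 0.1) against the share of each library's total that is not in the gene list, in percent; filled circles are RNC and open squares mRNA libraries, coloured by diet. Among HFD and control libraries Rpph1 reaches at most 35.0 CPM, in the library with 13.8% missing, and the 3 HFD+LYC RNC libraries lie above every other library at any share.

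Most other short structured RNAs were not seen at all. Of 128 others listed under the names of small nuclear, nucleolar, Cajal body, telomerase, BC1 or RNase P-like RNAs, 113 had no read in any library, none averaged 1 CPM over the 18 libraries, and none exceeded 22 reads in a library. The 110 listed nucleolar RNAs of the Snora and Snord families held 49 reads in all, 4 of them in HFD+LYC RNC. The 3 listed relatives of Rpph1, Rprl1, Rprl2 and Rprl3, had no read, so counts were not divided among these copies. Others were read in the same 3 libraries, as named after their values were seen. Bc1, a brain-enriched cytoplasmic RNA in rodents, had 14, 16 and 9 reads in HFD+LYC RNC, 2, 0 and 0 in HFD RNC and none in control RNC. Rnu12, the U12 RNA of the minor spliceosome, had 2, 10 and 15 reads in HFD+LYC RNC and none in the other 6 RNC libraries. Terc, the RNA of telomerase, had 22 reads and Scarna6 had 7 in HFD+LYC RNC replicate 3, and both had none in replicates 1 and 2.

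Other short noncoding genes were rare, and were counted by length after the values were seen. Of 1404 genes listed only with noncoding RefSeq transcripts under 400 bases, 44 had a read and 10 were tested in HFD+LYC against control RNC. Beside the 4 RNAs, Bc1, Epb41l4aos and LOC100504703 were called higher, 5730408K05Rik was called lower, and 2 others were not called. Bc1 passed the filter on low counts through the HFD+LYC RNC libraries, and the 4 RNAs were chosen as high there. Nothing is therefore read from the calls of these 5. Of 314 tested noncoding genes of 400 bases or more, 15 were called higher and 56 lower. Among nuclear long noncoding RNAs, Malat1 rose to 603, 583 and 498 CPM in HFD+LYC RNC (adjusted p = 0.00171 against HFD and 0.00129 against control, edgeR). It had 105, 24.5 and 39.5 CPM in HFD RNC and 56.0, 39.0 and 48.5 CPM in control RNC. Kcnq1ot1, which silences imprinted genes, also rose, to 16.1, 5.04 and 7.15 CPM against 2.26, 1.16 and 1.94 CPM in HFD RNC (adjusted p = 0.0344). Neat1, the scaffold of paraspeckles, was not called, at 27.3, 59.7 and 65.8 CPM in HFD+LYC RNC against 303, 56.1 and 70.1 CPM in HFD RNC. In control RNC it had 218, 167 and 188 CPM, so its HFD+LYC values lay below all control values, unlike those of Malat1. How many of all genes lay below control RNC in this way was not counted. Of the 9 listed nuclear RNAs 4 were tested in RNC, and Malat1 and Kcnq1ot1 were called. Of 19 histone genes tested in RNC, 2 were called higher and 7 lower against HFD, beside 9.34% and 17.4% of all genes. Against control the histone counts were again 2 and 7, beside 9.23% and 17.1%.

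Few genes for the proteins that these RNAs work with were called in RNC, where 9.34% of all genes were called higher and 17.4% lower against HFD, and 9.23% and 17.1% against control. Of the 11 genes for RNase P and MRP proteins 9 were tested in RNC, and in HFD+LYC against HFD none was called, with a median log2 change of -1.14 beside -0.29 over all genes. Against control 1 was called, lower: Rpp25l, whose product resembles an RNA-binding subunit of both enzymes, at 10.4, 14.6 and 9.16 CPM in HFD+LYC and 22.3, 21.7 and 27.0 CPM in control RNC (log2 fold change -1.0, SE 0.32, adjusted p = 0.0424). Of the 3 vault proteins none was called in either contrast. Mvp, the shell of the vault, had 16.1, 60.5 and 59.9 CPM in HFD+LYC, 27.8, 28.1 and 23.3 CPM in HFD and 32.9, 26.5 and 32.2 CPM in control RNC. Of 10 H/ACA and Cajal body genes, 2 were called lower against both diets and none higher. Coil, which scaffolds Cajal bodies, had no read in the 3 HFD+LYC RNC libraries, against 2.71, 4.37 and 2.52 CPM in HFD RNC, and Shq1, an H/ACA assembly factor, likewise had none, against 0.452, 3.30 and 2.52 CPM.

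Genes that bind or trim the 3′ ends of RNA polymerase III transcripts moved in both directions in RNC, in shares near those over all genes. Of 24 tested, 2 were called higher and 4 lower in HFD+LYC against HFD, and again 2 and 4 against control, with a median of -0.28 against HFD beside -0.29 over all genes. Ssb, the La protein that binds the new 3′ end of these transcripts, fell to 10.7, 2.27 and 6.96 CPM in HFD+LYC RNC, against 40.4, 45.0 and 56.9 CPM in HFD RNC (log2 fold change -2.78, SE 0.46, adjusted p = 0.00314). Exosc3 and Dis3, a cap subunit and a nuclease of the RNA exosome, had no read in HFD+LYC RNC, against 10.2, 17.5 and 15.7 CPM and 3.16, 2.86 and 4.66 CPM in HFD RNC. Exosc6, another exosome subunit, rose to 42.8, 16.1 and 55.2 CPM, against 12.4, 10.1 and 11.6 CPM in HFD RNC (adjusted p = 0.0116). Of 32 genes for RNA polymerase III and its factors, 2 were called lower against HFD and 4 against control, and none higher, beside 17.4% and 17.1% of all genes called lower. Zfp143, a transcription factor at promoters of small nuclear RNA genes, was among both, with no read in HFD+LYC RNC against 7.68, 2.68 and 3.79 CPM in HFD RNC. Of 10 genes of the signal recognition particle, another RNA and protein complex that binds ribosomes, 4 were called lower against both diets, Srp9, Srp14, Srp54c and Srp72, and none higher. In mRNA, 1 gene of these lists was called in HFD+LYC against HFD, the exosome gene Exosc2, at 18.2, 23.5 and 13.1 CPM in HFD+LYC and 8.62, 5.81 and 5.88 CPM in HFD mRNA (adjusted p = 0.0345).

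**Figure D4:**
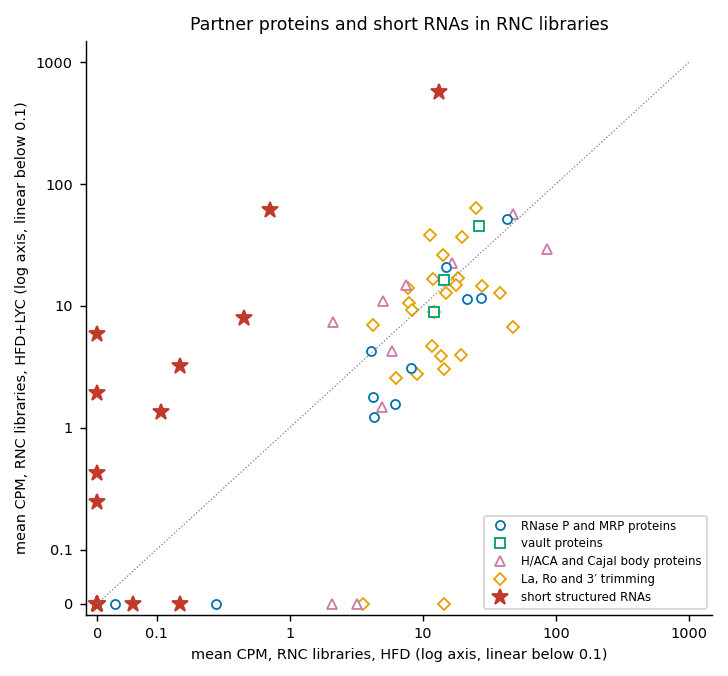
Mean level in HFD+LYC RNC libraries against the mean in HFD RNC libraries, in CPM on log axes that are linear below 0.1, for short structured RNAs (stars) and for 4 lists of protein genes (open symbols); the dotted line marks equal levels. Rpph1, Rmrp, Scarna13 and Vaultrc5 lie far above the line, up to 573 CPM for Rpph1. Other short RNAs without a read in HFD+LYC RNC lie on or below the line. Protein genes scatter around the line, and Coil, Shq1, Exosc3 and Dis3 lie at 0 in HFD+LYC RNC.

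The genes beside the RNAs moved in different ways. Parp2, a poly(ADP-ribose) polymerase of DNA repair, begins 126 bases from Rpph1 on the opposite strand. It had no read in the 3 HFD+LYC RNC libraries, against 39, 62 and 41 reads in HFD RNC and 61, 51 and 51 in control RNC, and was called lower against both (adjusted p = 0.00389 and 0.00364, edgeR). In mRNA it had 11.7, 26.3 and 12.2 CPM in HFD+LYC, 16.3, 12.9 and 7.25 CPM in HFD and 14.2, 17.7 and 11 CPM in control livers, and was not called. Ccdc107, a coiled-coil protein gene 281 bases from Rmrp on the opposite strand, was called higher in HFD+LYC RNC, at 541, 234 and 428 CPM against 188, 70.6 and 94.7 CPM in HFD RNC (log2 fold change 1.84, SE 0.42, adjusted p = 0.00991). Like Rmrp, it was higher in each HFD+LYC RNC library than in any of the other 15. Scarna13 overlaps Snhg10, its host on the same strand, and reads of the overlap cannot be divided between them from these tables. Snhg10 had 0, 0 and 24 reads in HFD+LYC RNC where Scarna13 had 34, 22 and 13, and in HFD RNC it had 6, 4 and 4 reads where Scarna13 had none. Syne3, a nuclear envelope protein gene 20488 bases from Scarna13 on the same strand, had 3.38, 4.54 and 2.57 CPM in HFD+LYC RNC, against 0.226, 0.803 and 1.07 CPM in HFD RNC, and was called higher against HFD (adjusted p = 0.0438, edgeR) but not against control (adjusted p = 0.108).

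**Figure D5:**
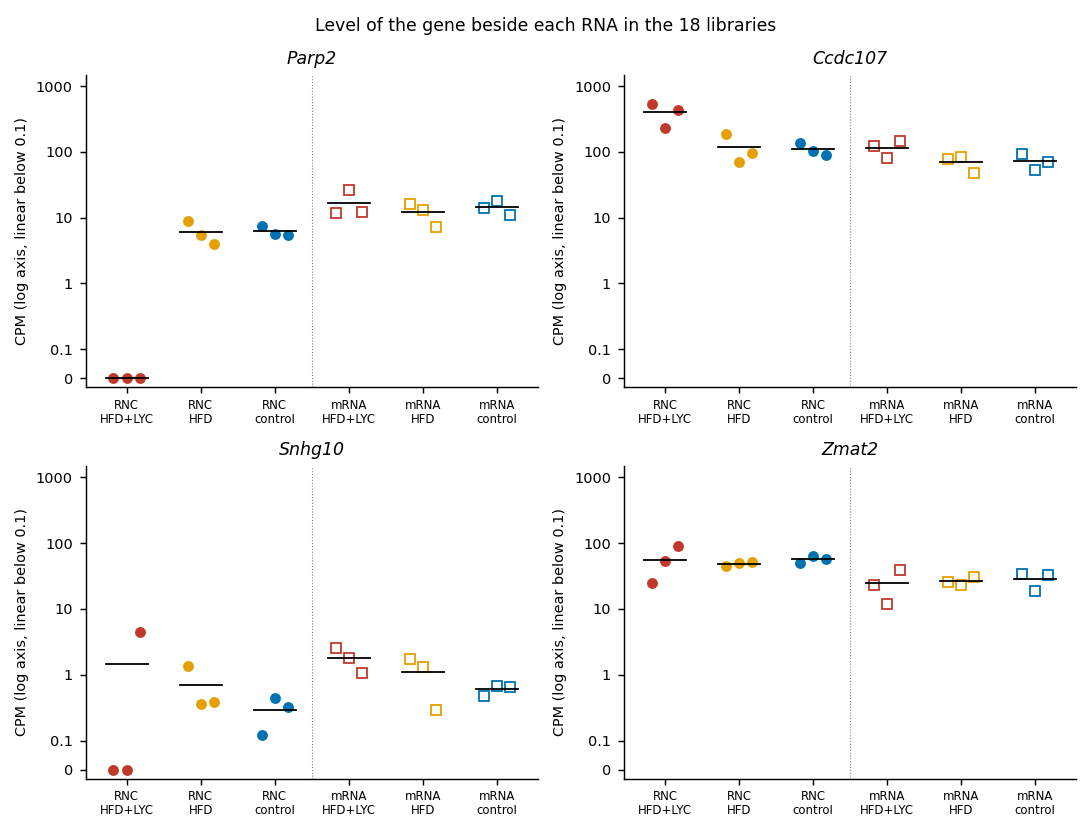
Level of the nearest gene with reads beside each RNA, in CPM on a log axis that is linear below 0.1, in the 18 libraries; filled circles are RNC libraries, open squares are mRNA libraries, and bars are means of 3 livers. Parp2, beside Rpph1, lies at 0 in all 3 HFD+LYC RNC libraries, Ccdc107, beside Rmrp, is highest there at 234 to 541 CPM, and Zmat2, beside Vaultrc5, overlaps between the diets.

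Vaultrc5 lies on the plus strand of chromosome 18 from 36801763 to 36802107 (GRCm38) and is annotated by RefSeq as a long noncoding RNA. The nearest gene with reads, Zmat2, ends 2103 bases before it on the same strand. Zmat2 had 24.8, 53.4 and 90.0 CPM in HFD+LYC RNC, 44.5, 50.1 and 52.0 CPM in HFD RNC and 50.9, 63.6 and 57.8 CPM in control RNC, and was not called. The high Vaultrc5 of HFD+LYC RNC thus stood beside a gene whose diets overlapped.

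The genes whose levels ran most like those of the RNAs over the 18 libraries were looked for among the 11892 genes that averaged 1 CPM or more, by the root mean square difference of log2 profiles, each centred on its own mean. For Rpph1 the nearest was Rmrp, at 1.17 log2 units, and for Rmrp it was Rpph1, where the median gene lay at 3.44 and 3.11. Next came genes of striated muscle. Myh7, the slow and cardiac myosin heavy chain, lay at 1.55 from Rpph1 and 1.40 from Rmrp, and Ttn, the giant sarcomere spring, at 1.59 from Rpph1. The third nearest to Rmrp was Ccnt1, a cyclin of transcription elongation, at 1.51. Myh7 had 39.7, 9.83 and 12.6 CPM in HFD+LYC RNC and no read in HFD or control RNC, and Ttn had 69.3, 74.1 and 38.5 CPM in HFD+LYC RNC against 0, 0.0892 and 0.388 CPM in HFD RNC. Outside HFD+LYC RNC Myh7 had 5 reads in all, so it reached the mean of 1 CPM through those libraries. Rpph1 and Rmrp were both chosen as high in the same libraries, so nothing is read from their nearness to each other.

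Scarna13 and Vaultrc5 had other nearest genes. For Scarna13 they were Samd4b, an RNA-binding repressor, at 0.59, and the transcription factors Nfib at 0.61 and Foxp1 at 0.62, where the median gene lay at 2.19. For Vaultrc5 they were Rnf168, a ubiquitin ligase of DNA repair, at 0.81, Samd4b at 0.82 and Nfib at 0.83, where the median gene lay at 2.37. Nfib had 644, 1041 and 787 CPM in HFD+LYC RNC, against 41.4, 43.4 and 39.6 CPM in HFD RNC. With few reads outside HFD+LYC RNC, these profiles rest on the difference between those 3 libraries and the rest, which the genes named share.

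Marker levels of several cell types differed in the same 3 libraries. In HFD+LYC against HFD RNC, 2 of 8 hepatocyte and 2 of 3 tested erythroid markers were called higher and none lower. Over all genes 9.34% were called higher there and 17.4% lower. Against control, 2 hepatocyte markers were called higher and 0 lower, and 0 erythroid markers higher and 1 lower. The 4 erythroid markers summed to 380 to 490 CPM in HFD+LYC, 313 to 948 CPM in HFD and 559 to 1219 CPM in control RNC. The 5 skeletal muscle markers, too low to be tested in RNC, summed to 0 to 11.3 CPM in HFD+LYC RNC, 0.535 to 1.58 CPM in HFD RNC and 0.434 to 1.71 CPM in control RNC. Of these 5, Acta1 alone had reads in HFD+LYC RNC, while Ckm, Myh4, Mylpf and Tnnt3 were at 0 there. The 5 stellate cell markers summed to 38.3 to 68.1 CPM in HFD+LYC RNC, with Hgf at 0, 244 to 321 CPM in HFD RNC and 187 to 259 CPM in control RNC. Of these 5, 4 were called lower against HFD and 3 against control, where 17.1% of all genes were called lower. The 6 Kupffer cell markers, all with reads, summed to 94.0 to 185 CPM in HFD+LYC, 225 to 396 CPM in HFD and 186 to 200 CPM in control RNC. Of these 6, 2 were called lower against HFD and 0 against control. The part of other cells in the levels of the 4 RNAs was not tested. In tissue samples, fewer cells of a type and less RNA per cell cannot be told apart.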

How the data were processed

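RNA-seq of 9 mouse livers gave 18 libraries, 1 of RNC and 1 of whole-tissue mRNA per liver. The deposited tables hold, per gene, a whole-number read count and an RPKM value, per the file headers. The labels' design text has reads mapped to RefSeq RNA. bcl2fastq and the build mm10 are named in the submitters' processing notes, while for the aligner and the strand setting nothing is given in the sources used here. Levels and tests rest on the counts. The deposited RPKM values served to work out each library's total, and so the share of it outside the gene list. They were otherwise used as an alternative scaling.

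The members and gene lists were chosen with earlier results of these data known. The 4 members were named by the rule. Other genes were named by their list, as the 3 nearest by profile, or as neighbours on the genome, and any other gene is said to be named after its values were seen.

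edgeR 4.0.16 in R 4.3.3 was used with a filter of at least 10 reads (15 in all), TMM scaling, a quasi-likelihood test and Benjamini-Hochberg adjustment over all genes, with a threshold of 0.05. It was run on 9 mRNA libraries, on 9 RNC libraries, and on all 18 for the difference between diets of the RNC to mRNA ratio. The code was tested on simulated data. DESeq2 1.42.0, other scalings, no filter, fits of 2 diets, blocks and each library left out were alternatives. Folds over pooled reads carry exact 95% counting intervals from scipy 1.17.1, with a floor of 3 reads per group. Listed reads per library set the precision of each level. Replicates are separate livers.

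The deposited tables of each mRNA and RNC pair carry 1 animal code, so the liver was tried as a block for the ratio, although deviations of the same liver correlated at -0.0361 to 0.510 and over 0.1 in 3 of 9 livers. Deviations of same-numbered livers of different diets were compared in mRNA, and all 3 HFD+LYC and HFD pairs were over 0.1, while 1 of the 3 HFD+LYC and control pairs was not. Pairs of unlike number were over 0.1 in 4 of 18 and reached 0.599.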

Additional observations from a re-analysis of the deposited data

Results flagged for a closer look

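Rmrp stood out because HFD+LYC and control livers lay on opposite sides of equal RNC and mRNA levels. The mean log2 RNC over mRNA was 7.69 in HFD+LYC livers, with all 3 above 0, and -2.01 in control livers, with all 3 below 0. The fit over all genes called this difference, but these ratios were among the values by which Rmrp was chosen, so that call is no independent test of it. The HFD+LYC value rests on 2 mRNA reads, and the control value on 10 RNC reads.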

How the results depend on the processing

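The fit with a replicate block called 1 of the RNAs, Rmrp, lower in HFD+LYC mRNA against HFD and 1 against control, where the fit without the block called 0. DESeq2 likewise called 1 in each. Leaving out each library in turn called 0 to 2 of them against control. The cause was not tested. Mean log2 RNC over mRNA in HFD+LYC livers kept its sign in all alternatives. For Rpph1 it was 7.18 per listed read and 6.96 per library total in place of 8.53, and for Rmrp 9.26 with 0.5 reads added in place of 7.69. For Scarna13, in place of 4.62, it was 3.61 per library total and 6.56 with 0.5 reads added. For Vaultrc5, in place of 4.92, it was 4.04 per listed read, 3.86 per library total and 6.58 with 0.5 reads added. Among all genes, mRNA calls in HFD+LYC went up to 1457 with the block and 1421 by DESeq2 against HFD, where 368 were called, and to 1425 and 1565 against control, where 701 were called. In mRNA of HFD against control, 2 became 38 by DESeq2, 6 without the filter and 1 in a fit of these diets alone. In RNC of HFD against control, 1 became 34 by DESeq2 and 32 in a fit of these diets alone. In RNC of HFD+LYC, fits of the compared diets alone called 1790 against HFD, where 3120 were called, and 2032 against control, where 3072 were called. Leaving out a library gave 66 to 606 mRNA calls against HFD and 91 to 952 against control. No direction of a called RNA turned. Depth limits Scarna13 and Vaultrc5 outside HFD+LYC RNC, where 0 to 6 reads stand behind each value.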
